A study of Mus musculus with 12 samples.

Results

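The genes described here are 8 genes of Schwann cells and myelin, Sox10, Egr2, Pmp22, Mbp, Prx, Cldn19, Pllp and Mag, picked by name from a table of 37432 genes. Each had 1 row in the table, and all 8 were among the 16215 genes tested, those at 1 FPKM or more in 2 libraries or more. The cochlea, the coiled hearing organ, of male mice at postnatal day 14 was divided into an apical, a middle and a basal turn for RNA-seq. Each turn was sampled in wild-type mice and in mice homozygous for the 35delG deletion of Gjb2, the gene of the gap junction protein connexin 26, with 2 libraries for each of the 6 groups and 12 in all. Tetraploid complementation of male embryonic stem cells gave the homozygous mice, which came by cesarean delivery and had ICR foster mothers, and the wild-type males were bought at the same age, so genotype and origin of the mice cannot be told apart. The sources used here do not give the number of mice or stem cell lines behind a library, and p-values therefore measure the spread between these libraries. Levels are given as scaled FPKM, fragments counted relative to transcript length and library size as the authors deposited them, divided by 1 factor per library, and fold changes as differences of log2(scaled FPKM + 1). A gene is said to pass a test, or to be called, at a fold over 2 and a p in limma below 0.01 once adjusted over the 16215 genes.

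Schwann cells are the glia of peripheral nerves. In the cochlea they wrap the fibres of the spiral ganglion neurons in compact myelin, and satellite glia enclose the cell bodies. The transcription factor Sox10 is needed for the whole lineage, and Egr2 acts with it to switch on the myelin genes, many of which are also used by oligodendrocytes, the myelinating cells of the central nervous system, on the part of the auditory nerve nearest to the brain.

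The promoters of the members whose genotype difference passed the test in at least 1 turn are printed first, because the question of a shared regulator starts from them. The file of RefSeq (GRCm38.p6) promoter windows that was available covered 6 of the 8 members, without Sox10 and Mbp. The windows are the 250 bases before the transcript start nearest to the start in the table, on the strand of the gene: Prx at chr7:27499074-27499323 and Cldn19 at chr4:119255191-119255440, both on the plus strand, Egr2 at chr10:67537619-67537868 on the plus strand and Pllp at chr8:94696243-94696492 on the minus strand. Capitals mark the letters searched for on both strands, GCGTGGG or GCGGGGG for EGR factors and ACAAAG or ACAATG for SOX factors.
Prx: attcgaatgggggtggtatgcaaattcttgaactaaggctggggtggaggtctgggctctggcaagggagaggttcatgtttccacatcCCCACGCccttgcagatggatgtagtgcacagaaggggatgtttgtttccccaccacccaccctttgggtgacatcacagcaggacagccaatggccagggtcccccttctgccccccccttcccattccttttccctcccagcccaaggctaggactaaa
Cldn19: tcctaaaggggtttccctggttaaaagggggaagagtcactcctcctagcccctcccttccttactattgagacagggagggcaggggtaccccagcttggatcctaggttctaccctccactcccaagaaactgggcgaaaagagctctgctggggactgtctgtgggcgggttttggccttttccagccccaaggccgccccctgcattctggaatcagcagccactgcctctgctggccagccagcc
Egr2: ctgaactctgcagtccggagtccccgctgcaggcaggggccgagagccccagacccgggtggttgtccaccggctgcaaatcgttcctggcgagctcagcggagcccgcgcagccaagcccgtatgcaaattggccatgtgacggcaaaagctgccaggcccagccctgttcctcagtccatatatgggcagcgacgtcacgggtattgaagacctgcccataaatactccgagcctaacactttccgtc
Pllp: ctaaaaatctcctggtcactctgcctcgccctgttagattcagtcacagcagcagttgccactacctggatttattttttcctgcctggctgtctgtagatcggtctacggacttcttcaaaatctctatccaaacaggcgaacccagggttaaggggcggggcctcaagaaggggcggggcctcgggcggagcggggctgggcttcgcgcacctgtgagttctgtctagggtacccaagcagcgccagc
The Prx window held 1 EGR match, on the minus strand, and no SOX match, and the windows of Cldn19, Egr2 and Pllp held neither. Of the other windows nearest to the table's start, that of Mag held 1 SOX match and that of Pmp22 neither. A window before another Egr2 transcript start, 2370 bases from the start in the table, held 1 EGR match. Among all 32851 RefSeq windows of this length, 13.0% held an EGR match and 25.2% a SOX match. These matches describe the letters of the windows and were not tested against binding.

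Gjb2, the mutated gene, was at 247 and 253 (apical), 139 and 267 (middle) and 433 and 255 (basal) in the wild-type turns. Homozygous libraries held Gjb2 at 331 and 375, 255 and 449, and 126 and 58.4 in the apical, middle and basal turns. Homozygous mice were the higher in the apical turn and the lower in the basal turn, without overlap, and the genotypes overlapped in the middle turn. None of the 3 differences was called, and as their directions differ the level of this gene does not settle the labels either way. Markers of other cells also differed between libraries and are given before the results. Of 10 oligodendrocyte markers, Mobp was the most abundant. The list summed to 9.39 and 9.67 (apical), 1079.8 and 11.2 (middle) and 5.63 and 318 (basal) in the wild-type turns. In the homozygous apical, middle and basal turns it summed to 11.05 and 22.9, 8.38 and 12.5, and 342 and 496. Wild-type middle repeat 1, wild-type basal repeat 2 and both homozygous basal libraries thus stood apart, and in these 4 libraries each of the 10 markers was at or above 1 scaled FPKM. In the other 8 libraries 7 to 9 of the 10 were under 1. Mog, a defining gene of mature oligodendrocytes, was at 0.140 and 0 (apical), 211 and 1.95 (middle) and 0.620 and 73.6 (basal) in the wild-type turns. Homozygous libraries held Mog at 0.137 and 0.993, 0.0555 and 0.134, and 68.8 and 114 in the same order of turns. Repeats of a group thus differed in transcripts of a cell type that can also make Mbp and Mag, and an alternative without wild-type middle repeat 1 and wild-type basal repeat 2 is given below. The homozygous basal turn could not be treated in this way, since both of its libraries held these transcripts.

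Neurons are the partners of Schwann cells, and the 12 spiral ganglion neuron markers, led by Snap25, summed to 664 and 990.3 (apical), 1569 and 1778 (middle) and 14.8 and 856 (basal) in the wild-type turns. The homozygous sums were 170.0 and 344, 379 and 47.8, and 2994 and 3327 in the apical, middle and basal turns. Wild-type basal repeat 1 was nearly free of neuronal RNA, with 7 of the 12 markers under 1 and Rbfox3 and Prph listed at 0. Both homozygous basal libraries were above every other library. Hair cell markers, led by Otof, went another way: their 7 genes summed to 159 and 163 (apical), 19.7 and 66.8 (middle) and 85.5 and 44.01 (basal) in the wild-type turns, and to 75.7 and 50.3, 44.2 and 61.8, and 4.70 and 4.36 in the homozygous turns, so that the homozygous basal libraries were the lowest. Fewer cells of a type and less RNA per cell cannot be told apart in such pieces of tissue, and the part of these markers in the results on the members was not tested.

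**Figure D1:**
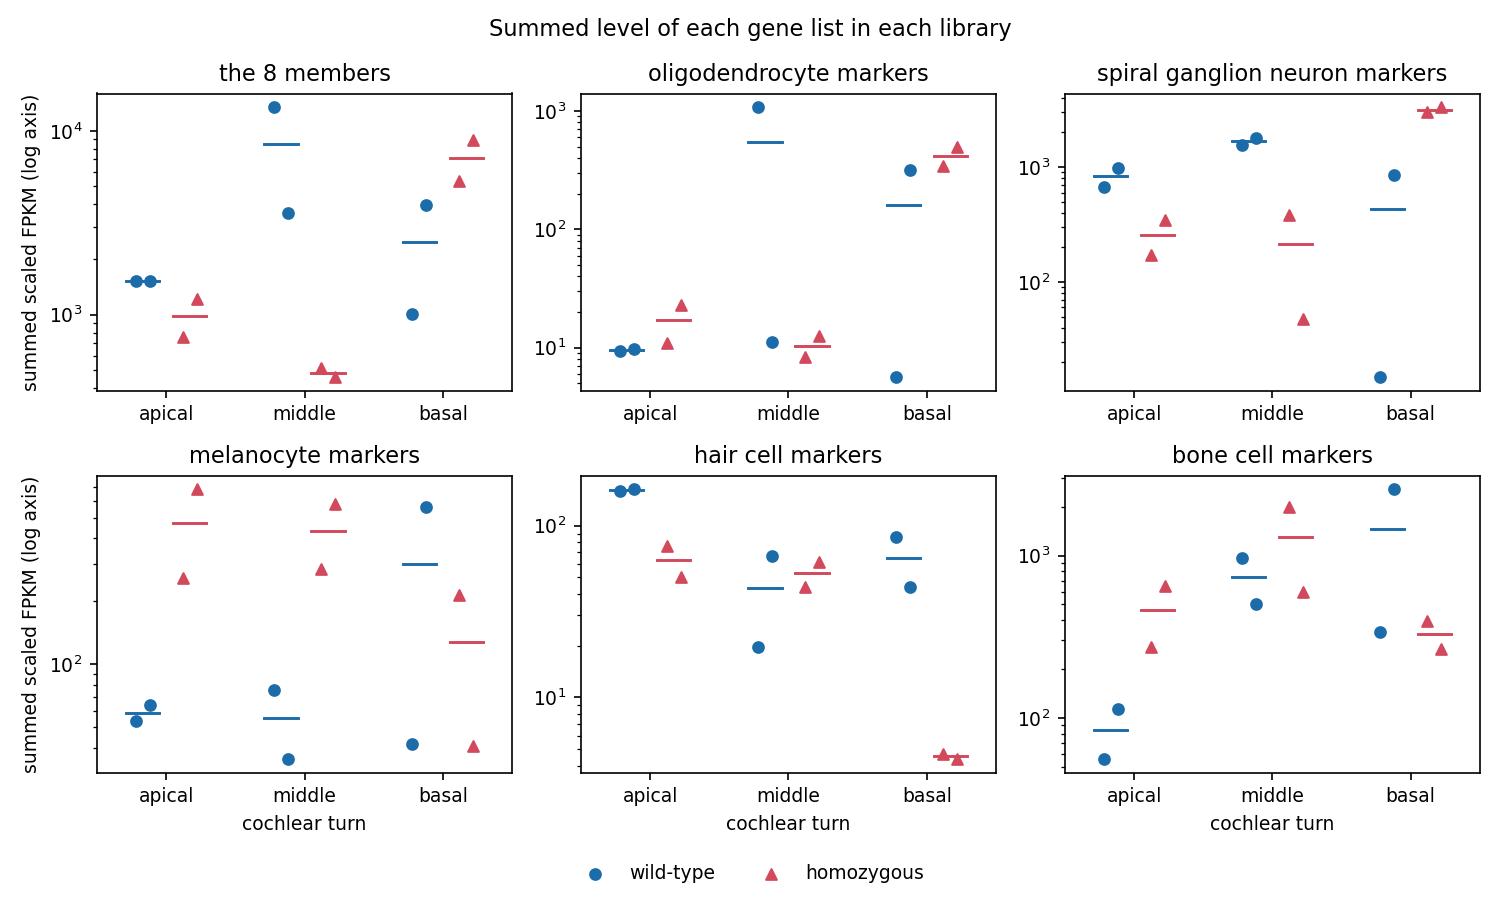
Summed scaled FPKM (log axis) of the 8 members and of 5 marker lists in each library, by turn, with blue circles for wild-type and red triangles for homozygous libraries and a bar at the mean of the 2 repeats. Oligodendrocyte markers summed to 1079.8 in wild-type middle repeat 1 and to 11.2 in repeat 2 of the same group.

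Other lists that could bear on the members varied as well. The 7 melanocyte markers are given because Sox10 also marks that lineage, and Dct was the most abundant of them. They summed to 53.8 and 63.7 (apical), 75.4 and 35.2 (middle) and 41.5 and 562 (basal) in the wild-type turns. Homozygous sums were 259 and 685, 283 and 581, and 213 and 40.6 in the same order. For Dct itself the wild-type basal libraries gave 1.02 and 441 and the homozygous basal ones 157 and 0.0644, and Tyr was under 1 in every wild-type library but basal repeat 2 and in homozygous basal repeat 2. Bone cell markers, 9 genes led by Ibsp, ranged from 55.5 in wild-type apical repeat 1 to 2571 in wild-type basal repeat 2. The 6 astrocyte markers, led by Slc1a3, ranged from 61.7 in wild-type middle repeat 2 to 231 in wild-type middle repeat 1, and the 6 supporting cell markers, led by Gjb2, from 225 in homozygous basal repeat 2 to 968 in homozygous middle repeat 2.

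By group means Pmp22 and Mbp were the most abundant members in every group, with Mbp above Pmp22 in the wild-type middle, wild-type basal and homozygous basal turns, and Egr2 was the lowest in the 3 wild-type groups and the homozygous basal turn, while Mag was the lowest in the homozygous apical and middle turns.

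Sox10, on chromosome 15 (ENSMUSG00000033006.10), is the transcription factor that sets Schwann cell identity and is also made by oligodendrocytes, melanocytes and supporting cells of the ear. It was at 92.4 and 93.1 (apical), 85.2 and 69.3 (middle) and 112 and 45.8 (basal) in the wild-type turns. Homozygous libraries held Sox10 at 77.3 and 75.6, 46.1 and 68.6, and 52.5 and 41.2. In the apical and middle turns homozygous mice were the lower without overlap, while in the basal turn the genotypes overlapped because the wild-type repeats were far apart. The log2 fold change was −0.28 (95% confidence interval −1.11 to 0.56, adjusted p = 0.773) for the apical, −0.44 (95% confidence interval −1.28 to 0.39, adjusted p = 0.492) for the middle and −0.61 (95% confidence interval −1.45 to 0.23, adjusted p = 0.294) for the basal turn. Sox10 thus passed no test of genotype, and its estimate in the basal turn was near 0 without wild-type basal repeat 1 (0.01, adjusted p = 0.984, over all alternatives 0.0123 to 0.984).

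Egr2, on chromosome 10 (ENSMUSG00000037868.15), is the zinc finger factor that drives the myelin programme in Schwann cells and is absent from that of oligodendrocytes. It was at 8.20 and 8.24 (apical), 7.64 and 11.9 (middle) and 2.69 and 3.20 (basal) in the wild-type turns. Homozygous libraries held Egr2 at 6.87 and 8.56, 4.11 and 5.10, and 20.1 and 18.5. The homozygous basal turn was the highest group and the wild-type basal turn the lowest, and the genotypes did not overlap there or in the middle turn, where the order was the reverse. In the basal turn Egr2 was 5.15-fold higher in homozygous mice, a log2 fold change of 2.37 (95% confidence interval 1.89 to 2.84, adjusted p = 0.00149). In the middle turn it was −0.92 (95% confidence interval −1.40 to −0.44, adjusted p = 0.0491), under a fold of 2, and in the apical turn, where the genotypes overlapped, −0.09 (95% confidence interval −0.57 to 0.39, adjusted p = 0.883). The basal call of Egr2 held with any 1 library left out, and was lost when only the 2 groups compared were fitted (adjusted p = 0.133) and with library weights (0.0104).

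Among the structural proteins, Prx encodes periaxin, which links the outer Schwann cell membrane to its surroundings, and Cldn19 a claudin of the tight junctions within peripheral myelin. Prx lies on chromosome 7 and Cldn19 on chromosome 4. Prx was at 73.3 and 69.4 (apical), 87.4 and 111 (middle) and 34.8 and 18.97 (basal) in the wild-type turns. Homozygous libraries held Prx at 39.6 and 40.2, 17.8 and 20.1, and 127 and 151. The genotypes did not overlap in any turn, but the order turned round: homozygous mice were the lower in the apical and middle turns and the higher in the basal turn. Prx passed the test in the middle turn, with a log2 fold change of −2.32 (95% confidence interval −2.90 to −1.74, adjusted p = 0.00806), and in the basal turn, with 2.38 (95% confidence interval 1.80 to 2.97, adjusted p = 0.00288). In the apical turn it was −0.82 (95% confidence interval −1.41 to −0.24, adjusted p = 0.172). The middle call was lost, at an adjusted p from 0.0123 to 0.0534, without any 1 of the libraries other than the wild-type basal ones, and the basal call, at 0.0107 to 0.0118, without wild-type apical repeat 1 or 2 or homozygous basal repeat 2. With only the 2 groups compared both were lost (0.0482 and 0.133), and the middle call also without a filter (0.021), with FPKM as deposited (0.0128) and with a replicate block (0.0194).

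Cldn19 was at 26.6 and 27.2 (apical), 20.98 and 39.98 (middle) and 8.26 and 4.65 (basal) in the wild-type turns. Homozygous libraries held Cldn19 at 14.7 and 14.2, 5.27 and 6.06, and 43.6 and 46.5. The order of the genotypes was that of Prx in every turn, again without overlap. In the basal turn Cldn19 was 6.36-fold higher in homozygous mice, with a log2 fold change of 2.67 (95% confidence interval 1.99 to 3.35, adjusted p = 0.00317). In the middle turn the value was −2.17 (95% confidence interval −2.85 to −1.49, adjusted p = 0.017), past the fold but not the p threshold (it passed without wild-type basal repeat 1 or 2, at 0.00921 and 0.00878), and in the apical turn −0.86 (95% confidence interval −1.54 to −0.18, adjusted p = 0.209). The call in the basal turn was lost, with an adjusted p from 0.0112 to 0.0127, when wild-type apical repeat 1 or 2 or homozygous basal repeat 1 or 2 was left out, and also without a filter (0.0108), with library weights (0.0154) and with only the 2 groups compared (0.133), while its log2 fold change stayed between 2.31 and 3.02 over all alternatives. Antisense genes share 5.38% of the exon bases of Prx and 2.11% of those of Cldn19.

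Pllp, on chromosome 8, encodes plasmolipin, a membrane protein of myelin in both peripheral and central nerves. It was at 41.6 and 44.3 (apical), 107 and 84.1 (middle) and 37.4 and 28.7 (basal) in the wild-type turns. Homozygous libraries held Pllp at 21.5 and 25.8, 11.5 and 13.02, and 54.9 and 98.5. The middle turn held the widest gap, with both homozygous libraries under every other library, and a log2 fold change of −2.85 (95% confidence interval −3.46 to −2.24, adjusted p = 0.00328). In the basal turn the value was 1.14 (95% confidence interval 0.53 to 1.76, adjusted p = 0.0218) and in the apical turn −0.84 (95% confidence interval −1.45 to −0.23, adjusted p = 0.177), neither of which passed. The middle call was lost, at an adjusted p from 0.0115 to 0.0344, without any 1 of the 8 apical and middle libraries. It was also lost without a filter (0.0108), with a replicate block (0.0109), with only the 2 groups compared (0.0414) and without the pair of wild-type libraries named above (0.0247). An antisense gene, Gm45767, covers 54.2% of the exon bases of Pllp, and whether the counting used strand is not given in the sources used here, so Pllp is uncertain in this respect. Gm45767 was at most 2.60 in any library.

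Pmp22, on chromosome 11, encodes a tetraspan protein of compact peripheral myelin that is also made outside nerve. It was at 755 and 758 (apical), 1146 and 2095 (middle) and 485 and 534 (basal) in the wild-type turns. Homozygous libraries held Pmp22 at 368 and 570.0, 266 and 199, and 914 and 1829. No turn had an overlap of the genotypes. The log2 fold change was −2.75 (95% confidence interval −3.74 to −1.75, adjusted p = 0.023) in the middle turn, 1.34 (95% confidence interval 0.35 to 2.34, adjusted p = 0.0651) in the basal and −0.72 (95% confidence interval −1.72 to 0.27, adjusted p = 0.457) in the apical turn, so that Pmp22 passed the p threshold in none of them.

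Mbp, the basic protein that holds the cytoplasmic faces of compact myelin together, and Mag, an adhesion protein of the membrane facing the axon, belong to both kinds of myelin. Mbp was at 525 and 514 (apical), 11788 and 1153 (middle) and 327 and 3239.9 (basal) in the wild-type turns. Homozygous libraries held Mbp at 224 and 470.1, 159 and 142, and 4033 and 6579.9. In the wild-type middle and basal turns the repeats lay far apart, the higher being the library with oligodendrocyte transcripts each time. Mag was at 9.94 and 9.27 (apical), 245 and 16.4 (middle) and 4.03 and 59.03 (basal) in the wild-type turns. Homozygous libraries held Mag at 6.68 and 8.61, 2.49 and 3.68, and 102 and 141. Although no turn had overlapping genotypes, neither gene passed: Mbp was −4.61 (95% confidence interval −7.32 to −1.89, adjusted p = 0.0638) for the middle and 2.32 (95% confidence interval −0.40 to 5.04, adjusted p = 0.22) for the basal turn, and Mag −4.02 (95% confidence interval −6.89 to −1.15, adjusted p = 0.0964) and 2.80 (95% confidence interval −0.07 to 5.67, adjusted p = 0.164). Over the alternatives the basal value ran from 0.66 to 3.97 for Mbp and from 1.01 to 4.59 for Mag, lowest without wild-type basal repeat 1, and the middle value from −6.28 to −2.93 and from −5.93 to −2.11, nearest to 0 without wild-type middle repeat 1. In the apical turn Mbp was −0.68 (adjusted p = 0.834) and Mag −0.30 (adjusted p = 0.938).

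The ratio of Mag to Prx within a library, looked at after the values were seen, set the same libraries apart. It was 0.136 and 0.133 in the wild-type apical turn, 2.80 and 0.148 in the middle and 0.116 and 3.11 in the basal turn. Homozygous ratios of Mag to Prx were 0.169 and 0.214, 0.140 and 0.183, and 0.801 and 0.939. The libraries in which Mog was above 50 had the 4 highest ratios. Mbp to Pmp22 ran the same way, from 0.550 in wild-type middle repeat 2 to 10.3 in repeat 1 of that group.

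**Figure D2:**
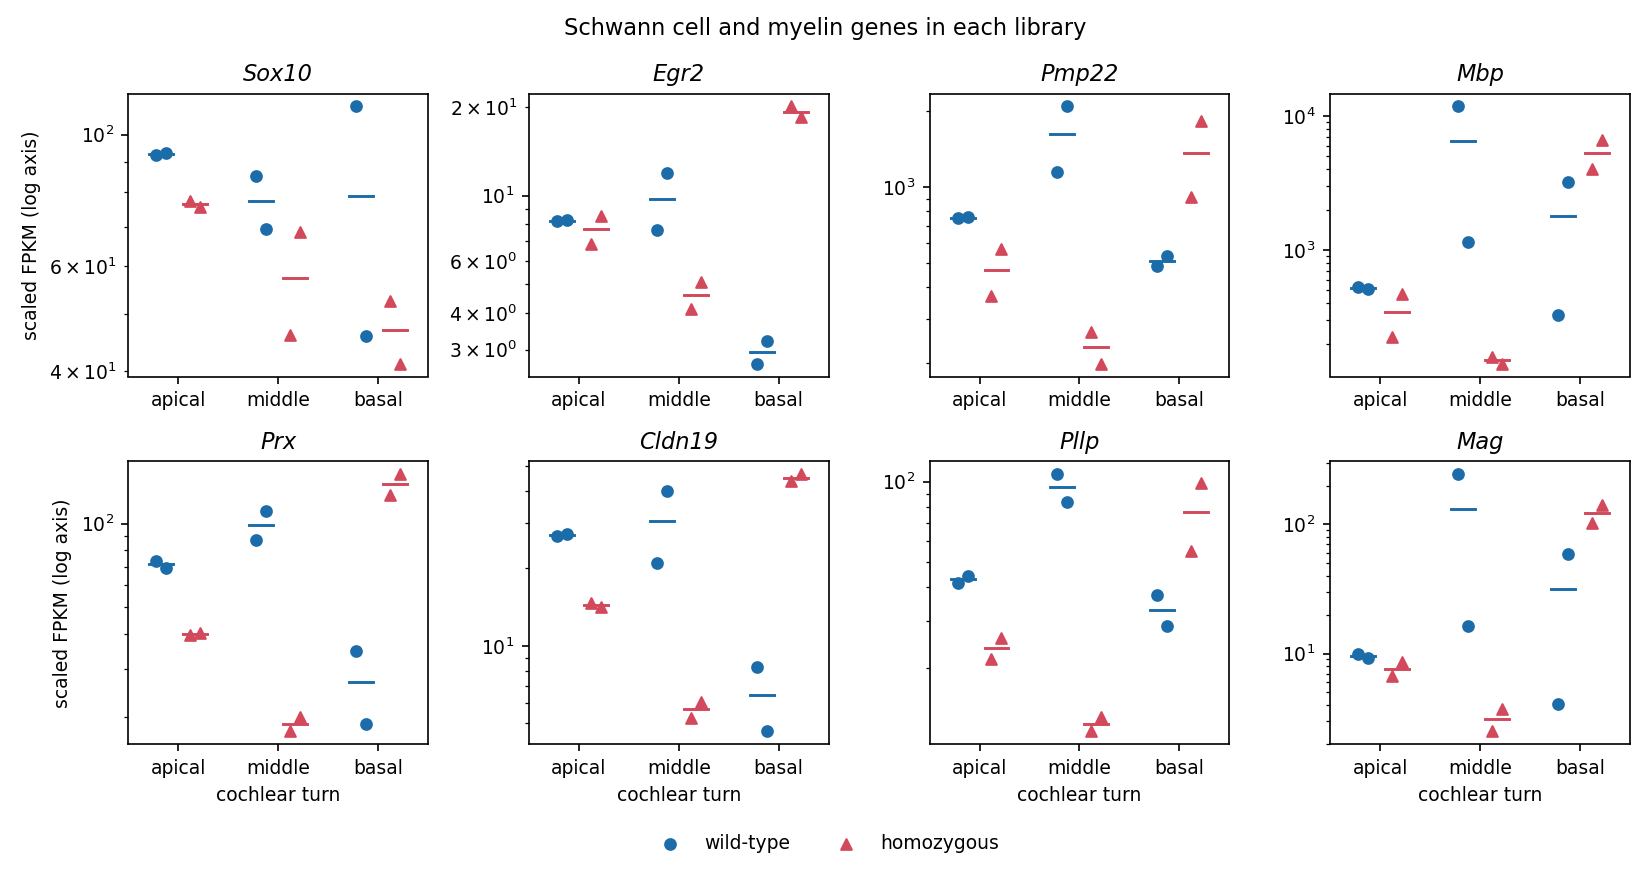
Scaled FPKM (log axis, own scale in each panel) of the 8 members in each library, by turn, with blue circles for wild-type and red triangles for homozygous libraries and a bar at the mean of the 2 repeats. In the basal turn Egr2 was at 2.69 and 3.20 for wild-type and 20.1 and 18.5 for homozygous mice.

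The counts over the members are given beside those over all genes tested. Where 1 library is left out, only the members are counted. The number of all genes called varied widely in those fits too, so a lost or gained call is not particular to the members. In the apical turn 0 of 8 members were called, where limma called 0.0987% of all genes as higher and 0.0802% as lower in homozygous mice, and 3 of 8 members had an unadjusted p under 0.05 (16.4% of all genes). In the middle turn 2 of 8, Prx and Pllp, were called lower, against 0.0987% of all genes lower and 0.0802% higher. In the basal turn 3 of 8, Egr2, Prx and Cldn19, were called higher, against 2.53% of all genes higher and 1.76% lower. The median log2 fold change of the members was −0.70 (apical), −2.53 (middle) and 2.34 (basal), and that of all genes was −0.03, 0.04 and −0.02.

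With an adjusted p under 0.05 and the same fold, 4 of 8 members were lower in the middle turn (1.92% of all genes) and 4 of 8 higher in the basal turn (6.78%). Both homozygous libraries were below both wild-type libraries for 7 of 8 members in the apical turn (32.1% of all genes) and for 8 of 8 in the middle turn (28.2%), and above them for 7 of 8 in the basal turn (26.2%). The count of 2 in the middle turn was fragile: it was 0 without any 1 of the 8 apical and middle libraries, 1 without either homozygous basal library and 3 without either wild-type basal library. The count of 3 in the basal turn was 1 without wild-type apical repeat 1 or 2 or homozygous basal repeat 2. With wild-type middle repeat 1 and wild-type basal repeat 2 both left out, an alternative chosen after the data were seen, Prx and Cldn19 were called in the middle turn, and Egr2, Prx and Cldn19 remained called in the basal turn. This alternative cannot speak for Mbp and Mag in the basal turn, since it takes a library with oligodendrocyte transcripts from the wild-type side while both homozygous libraries hold them. With FPKM as deposited the median of all genes moved by 0.13 in the middle turn, the genes called there were 60.9% higher instead of 44.8%, and 1 member was called. The same change moved the median by 0.12 for the difference between middle and apical effects, by −0.13 for that between basal and middle effects, where 61.2% instead of 71.1% of calls were higher, and by −0.10 between the wild-type middle and apical turns.

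**Figure D3:**
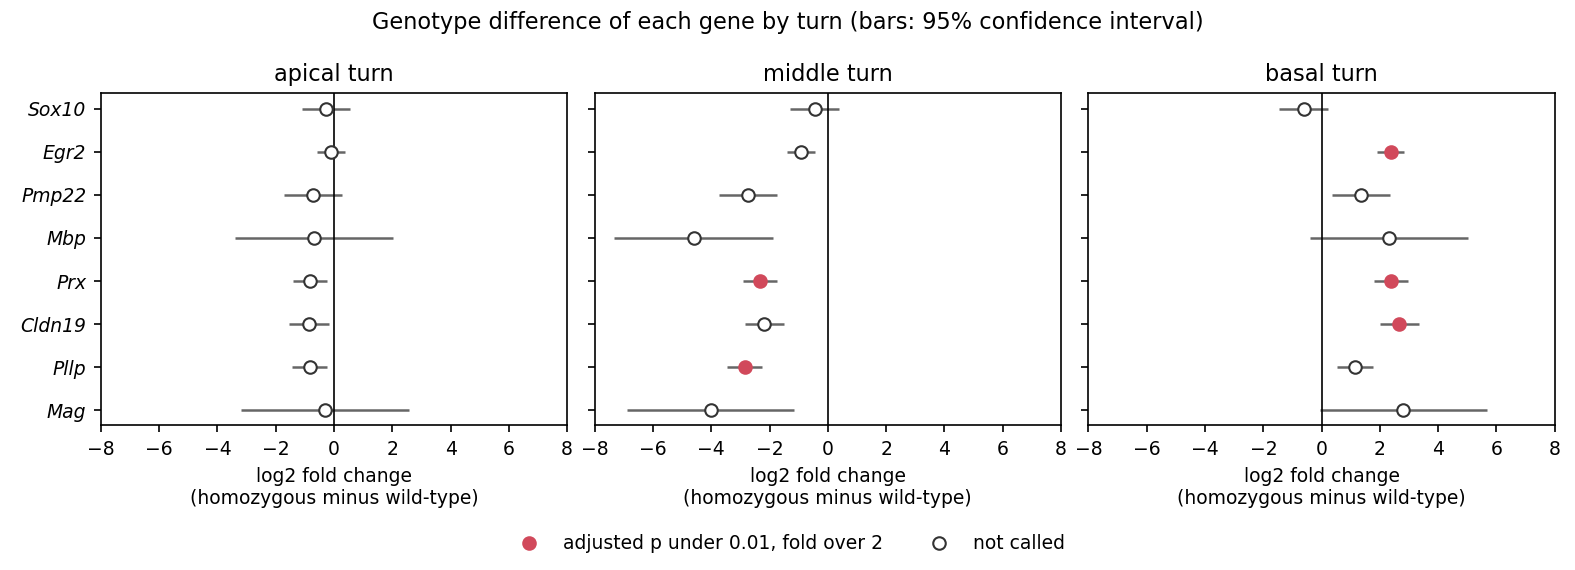
Log2 fold change (homozygous minus wild-type) of each member in the apical, middle and basal turn, with 95% confidence intervals, filled where the gene was called. Prx fell in the middle turn (−2.32) and rose in the basal turn (2.38).

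Whether the genotype effect itself differed between turns was tested in the same fit. Between the basal and the middle turn, 5 of 8 members had a called difference toward higher values in the basal turn, against 6.33% of all genes in that direction and 2.58% in the other. The 5 were Prx (4.70, 95% confidence interval 3.88 to 5.53, adjusted p = 0.00113), Cldn19 (4.84, adjusted p = 0.00122), Egr2 (3.29, adjusted p = 0.00122), Pmp22 (4.09, adjusted p = 0.00372) and Pllp (3.996, adjusted p = 0.0015). Mbp and Mag had larger estimates with wider intervals, 6.93 (95% confidence interval 3.09 to 10.77, adjusted p = 0.0205) and 6.82 (95% confidence interval 2.76 to 10.88, adjusted p = 0.0269), and did not pass, while Sox10 was at −0.17 (adjusted p = 0.838). At an adjusted p under 0.05, 7 of 8 passed (11.2% of all genes). With only the groups compared, no member was called for the difference between basal and middle effects. The count of 5 stayed between 4 and 7 when any 1 library was left out.

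Between the basal and the apical turn the difference of the genotype effect was called for 3 of 8 members, Prx (3.21, adjusted p = 0.00663), Cldn19 (3.53, adjusted p = 0.00663) and Egr2 (2.45, adjusted p = 0.00663), against 0.537% of all genes. It was called for 0 of 8 between the middle and the apical turn, where limma called 0% of all genes and 6 of 8 members had an unadjusted p under 0.05 (8.05% of all genes). The comparisons share libraries and are not independent of each other. Turns of a genotype may also come from the same mice, since each cochlea was cut into 3 sections. With a replicate block, without a filter or with only the groups compared, the count of 3 between basal and apical turns was 0. The count of 3 was 0 without any 1 of the apical or middle libraries or homozygous basal repeat 2.

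Levels along the cochlea ran differently in the 2 genotypes. In wild-type mice 0 of 8 members were called between the middle and apical turns (0.0863% of all genes), between the basal and apical turns (0.0863%) or between the basal and middle turns (0%) with limma, and 3, 3 and 5 members had an unadjusted p under 0.05, with 19.9%, 20.3% and 15.2% of all genes. At an adjusted p under 0.05, 3 of 8 were lower in the wild-type basal than in the apical turn (0.691% of all genes): Cldn19 (−1.95, adjusted p = 0.0316), Egr2 (−1.23, adjusted p = 0.0419) and Prx (−1.44, adjusted p = 0.0477). Prx was called between the wild-type basal and middle turns when wild-type basal repeat 1 was left out, the 1 member called there.

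In homozygous mice, of 8 members 5 were called higher in the basal than in the middle turn (3.11% of all genes), Prx (2.81, 95% confidence interval 2.22 to 3.39, adjusted p = 0.00286), Cldn19 (2.79, adjusted p = 0.00344), Pllp (2.49, adjusted p = 0.00351), Pmp22 (2.49, adjusted p = 0.00847) and Egr2 (1.86, adjusted p = 0.00373). Against the apical turn 3 of 8 were called higher (1.91%), Prx (1.77, adjusted p = 0.0057), Pllp (1.60, adjusted p = 0.00802) and Egr2 (1.23, adjusted p = 0.00842), and 6 of 8 at an adjusted p under 0.05 (6.41%). Sox10 was at −0.70 (adjusted p = 0.225) against the apical and −0.27 (adjusted p = 0.647) against the middle turn. Between the homozygous middle and apical turns limma called 0 of 8 (0% of all genes), with 4 members at an unadjusted p under 0.05 (2.65% of all genes). With only the groups compared, the calls in homozygous mice were 0 for basal against middle and 1 for basal against apical. Against the apical turn the calls were also 0 with a replicate block and without a filter. With 1 library left out, calls over all genes against the apical and middle turns also ranged widely. The 5 calls against the middle turn were 0 without wild-type apical repeat 1 or 2, homozygous middle repeat 1 or 2 or homozygous basal repeat 2, and 3 without homozygous basal repeat 1. The 3 calls against the apical turn were 0 without any 1 apical library, either homozygous middle library or homozygous basal repeat 2, and 1 without homozygous basal repeat 1.

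By group means the homozygous middle turn was the lowest of the 6 groups for Pmp22, Mbp, Prx, Cldn19, Pllp and Mag. For Prx and Cldn19 its libraries overlapped with those of the next group, the wild-type basal turn. The top of the order was the wild-type middle turn for Pmp22, Mbp, Pllp and Mag, where it overlapped with the homozygous basal turn for each of the 4, and the homozygous basal turn for Egr2, Prx and Cldn19. For the members other than Sox10 the middle turn was thus above the basal turn in wild-type mice and below it in homozygous mice. Sox10 means had the reverse order in each genotype, with overlapping libraries. For Prx and Cldn19 wild-type middle stood next to homozygous basal and wild-type basal next to homozygous middle. An exchange of middle and basal pieces or labels in 1 genotype would give the same picture and would change the meaning of each middle and basal genotype difference. Labels were kept as deposited, and such an exchange was not tested. The highest group mean was 7.33 times the lowest for Prx, 7.95 for Cldn19, 7.77 for Pllp, 6.98 for Pmp22 and 6.55 for Egr2. For Mbp and Mag it was 42.96 and 42.3 times, and for Sox10, whose lowest group was the homozygous basal and whose highest the wild-type apical turn, 1.98 times.

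The other genes of myelin structure were looked at as a list of 14, all of them tested. In the basal turn 3 of 14 were called higher in homozygous mice (2.53% of all genes) and 0 lower, with a median log2 fold change of 1.83 against −0.02 over all genes. Among the 3 were the connexin gene Gjc3 (2.01, 95% confidence interval 1.28 to 2.74, adjusted p = 0.00746) and Gldn (3.09, adjusted p = 0.00528), whose product gliomedin lies at the nodes of peripheral nerve. In the middle turn 0 of 14 were called with a median of −2.47, and in the apical turn 0 of 14 with −0.47. The difference between basal and middle effects was called for 9 of 14 (6.33% of all genes), each toward the basal turn, among them Gjc3, Gldn, Cnp, Mal, Gjb1, Drp2, Ncmap and Cadm4.

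Of 14 genes of Schwann cell transcription and signalling, 1 was called lower in the middle turn (0.0987% of all genes), 2 higher in the basal turn (2.53%) and 0 in the apical turn. Pou3f1, a factor that precedes Egr2 in the promyelinating stage, was called in both turns, at −1.998 (95% confidence interval −2.38 to −1.62, adjusted p = 0.00189) for the middle and 1.70 (95% confidence interval 1.32 to 2.08, adjusted p = 0.00208) for the basal turn. Its levels were 3.92 and 3.87 (apical), 5.76 and 6.44 (middle) and 1.12 and 0.978 (basal) in the wild-type turns. Homozygous libraries held Pou3f1 at 1.70 and 1.62, 0.578 and 0.999, and 5.62 and 5.69. Its relative Pou3f2 was called in the basal turn (2.04, adjusted p = 0.00484). Genes of this list went both ways, and its medians were −0.22, −0.32 and 0.30 in the apical, middle and basal turns. Zeb2, Erbb3 and Yy1, the most abundant of the list, were not called in any turn. Between basal and middle effects 3 were called higher (6.33% of all genes), Pou3f1, Pou3f2 and Adam22, and 1 lower (2.58%), Nfatc4 at −1.72 (adjusted p = 0.00452).

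The 11 genes of immature and non-myelinating Schwann cells had medians of −0.05, −1.33 and 0.76. For genotype 1 of 11 was called, the adhesion gene L1cam, higher in the basal turn (1.84, 95% confidence interval 1.13 to 2.55, adjusted p = 0.00822, 2.53% of all genes). S100b, the most abundant, was at 429.8 and 289 (apical), 709 and 555 (middle) and 578 and 1674 (basal) in the wild-type turns. Homozygous libraries held S100b at 1473 and 2161, 1432 and 2019, and 1031 and 416, an order unlike that of the members. Gfap was 365 in wild-type middle repeat 1 and 0.814 in repeat 2, and at most 5.34 in the other libraries with little Mog. The difference between basal and middle effects was called for 4 of 11 (6.33% of all genes), Ngfr, Ncam1, L1cam and Cdh19, each higher.

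Myelin is rich in cholesterol and galactolipids, and 17 genes of their synthesis formed the next list. Their medians were −0.27, −1.17 and 0.97 in the apical, middle and basal turns, and 0 of 17 were called for genotype in any turn. The difference between basal and middle effects was called for 7 of 17 (6.33% of all genes), each toward the basal turn, among them Fa2h, which makes the hydroxylated fatty acids of myelin lipids (5.73, 95% confidence interval 3.92 to 7.55, adjusted p = 0.00314), Ugt8a, the galactosyltransferase of cerebroside synthesis (6.53, adjusted p = 0.00948), and Hmgcs1 of the cholesterol pathway (3.96, adjusted p = 0.00721). Gal3st1, Fdft1 and Msmo1 were also among the 7. Ugt8a was at 23.7 and 27.01 (apical), 226 and 49.7 (middle) and 7.05 and 63.4 (basal) in the wild-type turns. Homozygous libraries held Ugt8a at 10.99 and 15.9, 7.39 and 3.76, and 101 and 149. Cers2, the most abundant of the list, stayed between 73.9 and 125 in the 12 libraries.

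Genes of the node and paranode, where axon and glia meet, are made largely by neurons. Of 12, 3 were called higher in the basal turn (2.53% of all genes), Kcna1 (2.92, 95% confidence interval 1.96 to 3.89, adjusted p = 0.00591), Kcna2 (2.90, adjusted p = 0.00812) and Cntnap1 (2.34, adjusted p = 0.00663), and 0 in the other turns, with medians of −0.87, −1.80 and 2.59. The difference between basal and middle effects was called for 9 of 12 (6.33% of all genes), among them the 3 above, Cntn1, Cntn2, Nfasc, Sptbn4 and Scn8a. The spiral ganglion neuron markers had still wider medians, −1.61, −3.42 and 4.16, but their repeats varied more and 0 of 12 were called for genotype in any turn, with 4 of 12, Syn1, Rbfox3, Elavl4 and Mapt, called for the difference between basal and middle effects (6.33% of all genes). Snap25 was at 147 and 220.4 (apical), 352 and 443 (middle) and 2.16 and 158 (basal) in the wild-type turns. Homozygous libraries held Snap25 at 39.5 and 87.8, 92.9 and 9.95, and 736 and 842. Snap25, like Prx and Cldn19, was thus highest in the homozygous basal turn and next in the wild-type middle turn.

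**Figure D4:**
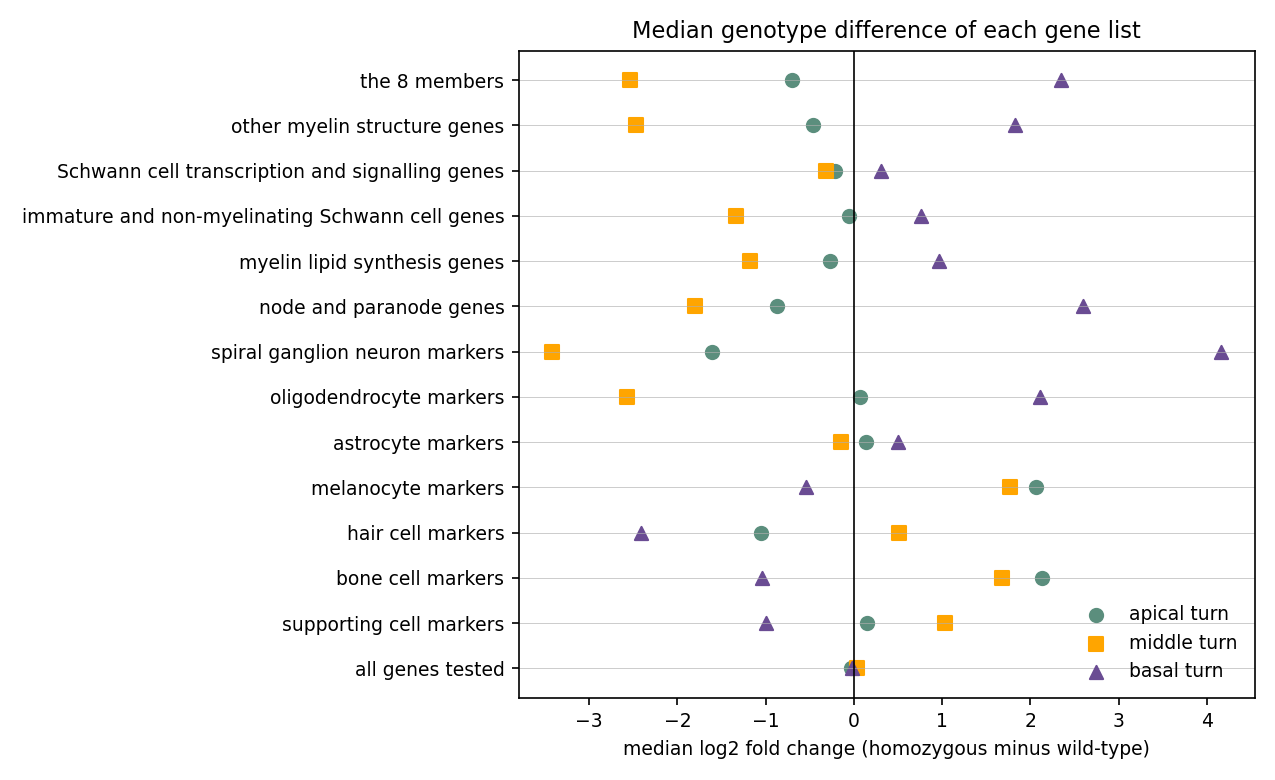
Median log2 fold change (homozygous minus wild-type) of the 8 members, the 12 gene lists and all genes tested, in the apical (circles), middle (squares) and basal turn (triangles). Members were at −2.53 for the middle and 2.34 for the basal turn, and all genes at 0.04 and −0.02.

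The remaining cell marker lists gave few genotype calls. Oligodendrocyte markers had medians of −2.57 (middle) and 2.11 (basal) with 0 of 10 called, and the wild-type repeats of these turns lay far apart. Astrocyte, melanocyte and bone cell markers had 0 called in any turn, with medians by turn, from apical to basal, of 0.14, −0.14 and 0.50 for astrocyte, 2.07, 1.77 and −0.54 for melanocyte and 2.13, 1.68 and −1.04 for bone cell markers. The difference between basal and middle effects was called in these lists for Fgfr3 alone, toward lower values (−2.92, adjusted p = 0.00251, 2.58% of all genes). Of 6 hair cell markers tested, 2 were called lower in the basal turn (1.76% of all genes). They were Otof (−4.60, 95% confidence interval −5.55 to −3.65, adjusted p = 0.00163) and Pou4f3 (−3.22, adjusted p = 0.00476). In the middle turn 1 of 6, Slc26a5, was called higher (2.93, adjusted p = 0.00889, 0.0802% of all genes). Of 6 supporting cell markers, 1 was called lower in the basal turn (1.76% of all genes), Otog (−4.22, adjusted p = 0.000968). In the apical turn 1 was called higher (0.0987% of all genes), Tecta (5.19, adjusted p = 0.00514). For 3 of 6 hair cell markers, Otof, Pou4f3 and Slc26a5, the difference between basal and middle effects was called toward lower values in the basal turn (2.58% of all genes). It was also called in that direction for 3 of 6 supporting cell markers, Gjb6, Otog and Tecta. The basal turn in which Egr2, Prx and Cldn19 were higher was thus also the turn in which Otof, Pou4f3 and Otog of the sensory epithelium were lower, and the part of tissue make-up in the result was not tested.

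The members were not equally alike. Against the mean of the other 7, each gene standardized on the log2 scale over the 12 libraries, Pearson's r was 0.947 for Prx, 0.942 for Pllp, 0.903 for Pmp22 and 0.871 for Cldn19. It was 0.719 for Mbp, 0.715 for Egr2 and 0.691 for Mag, and −0.143 for Sox10, the one member that did not run with the rest. These are descriptions over libraries that share 6 groups. Outside the members and lists 9338 genes averaged 5 scaled FPKM or more, and among them the 5 most like the mean of all 8 were Fam178b (r = 0.979), Galnt16 (0.962), Plekha4 (0.957), Ndrg1 (0.955) and Ippk (0.951). Fam178b was at 19.6 and 19.2 (apical), 27.8 and 35.8 (middle) and 8.90 and 8.25 (basal) in the wild-type turns. Homozygous libraries held Fam178b at 11.4 and 13.9, 5.75 and 5.94, and 28.2 and 43.6. Ndrg1, whose loss causes a demyelinating neuropathy, ranged from 79.03 in homozygous middle repeat 2 to 345 in homozygous basal repeat 2.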

How the data were processed

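The authors cut each cochlea into 3 sections, aligned reads to mm10 (GRCm38) with STAR 2.7.3a after trimming with fastp 0.20.0, counted with featureCounts 2.0.0 and deposited FPKM from StringTie 2.0 for 37432 genes, versions per the submitters' processing notes. FPKM show no steps of whole reads, so depth and counting error are unknown and the 2 repeats of a group are the measure of precision. Each library was scaled by its median ratio to the geometric mean of the 11552 genes that no library held under 1 FPKM. Tests used limma 3.58.1 in R 4.3.3 for 16215 genes (1 FPKM or more, 2 libraries or more) after adding 1 and taking log2, which understates changes of low genes, with 1 mean for each of 6 groups, eBayes moderation with a trend (degrees of freedom 6 residual, 2.78 prior), two-sided tests and Benjamini-Hochberg adjustment over all genes. Calls needed a fold over 2 and an adjusted p below 0.01. The fit was also run on simulated independent libraries with known changes in the homozygous basal turn alone. The outcome is not reported here and is not used as support.

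Gene types, overlapping genes and coordinates came from the table and GENCODE vM21, and promoters from RefSeq. Named genes were the 8 members, of each of 12 lists the called genes and 2 to 4 of highest mean, and the 5 genes most like the members. Called list genes are printed for genotype and for the basal minus middle difference, and not every high-mean gene is. Some genes of the lists are not reported here. Library labels were kept as deposited, with the doubt on middle and basal turns given above. The members and lists were chosen with earlier results of these data known. Alternatives were a pseudocount of 0.1, no filter or one of 5 FPKM, FPKM as deposited, quantile normalization, only the groups compared, a replicate block, library weights, an adjusted p under 0.05, each of the 12 libraries left out, and 2 chosen after the data were seen.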

Additional observations from a re-analysis of the deposited data

Results flagged for a closer look

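The genotype effect of several members differed between turns by the test of that difference. Between the basal and middle turns the effect differed by 4.09 for Pmp22, 4.70 for Prx, 3.996 for Pllp, 3.29 for Egr2 and 4.84 for Cldn19, on the log2 scale. For each of these genes both homozygous libraries were below both wild-type libraries in the middle turn (28.2% of all genes). In the basal turn they were above them (26.2% of all genes). These orders largely follow from picking genes by this difference and add no support to it. An exchange of middle and basal pieces or labels in 1 genotype would give the same reversal, and this was not tested. Between the basal and apical turns it differed by 3.21 for Prx, 2.45 for Egr2 and 3.53 for Cldn19. With only the groups compared, no member was called for either difference. With a replicate block, none was called for that between the basal and apical turns. Neuron markers moved the same way between these groups, with a median of 7.51 for the basal minus middle difference, and their part in the result was not tested.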

How the results depend on the processing

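Of 276 recomputed counts of called members, 219 were within 1.5 times of the main count, 50 were lower and 7 higher. Among 552 recomputed log2 fold changes of members between genotypes, 502 kept their direction and side of the threshold, 39 lost the call, 9 gained one and 2 reversed: Sox10 in the basal turn (0.0147 without wild-type basal repeat 1, −1.24 without repeat 2) and Egr2 in the apical turn (0.0541 without homozygous apical repeat 1, −0.23 without repeat 2). Without a filter on low values the count was 0 for the middle turn, for the difference between basal and apical effects and for the homozygous basal minus apical comparison. FPKM as deposited gave 1 in the middle turn. With only the groups compared, which leaves fewer degrees of freedom, it was 0 in the middle turn, the basal turn, both differences from the basal effect and the homozygous basal minus middle comparison, and 1 for homozygous basal minus apical. Library weights gave 1 in the basal turn. An adjusted p under 0.05 gave 4 in the middle turn, 3 for wild-type basal minus apical and 6 for homozygous basal minus apical. Without the 2 wild-type libraries with oligodendrocyte markers, chosen after the data were seen, it was 5 in the basal turn, 5 for the difference between basal and apical effects and 6 for homozygous basal minus apical. Both homozygous basal libraries keep oligodendrocyte transcripts, so that the added calls of Mbp and Mag are not taken as support, and why they arose was not tested.

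With the replicate block the count was 0 in the middle turn, 0 for the difference between basal and apical effects and 0 for homozygous basal minus apical, and 3 in the basal turn as before. Correlations of deviations between repeats of equal number ran from −0.07 to 0.21 between genotypes of a turn. Over all pairs of groups they ran from −0.43 to 0.45. Signs differed between pairs, so the main fit used no block. Each cochlea was cut into 3 sections, so turns of a genotype may come from the same mice. Which pieces share a mouse is not given in the sources used here, and tests between turns treat all libraries as independent. Middle and basal repeats correlated at −0.29 in wild-type and −0.25 in homozygous mice, and a crossed block, with the numbers of the middle groups exchanged and chosen after the data were seen, gave 6 for the difference between basal and middle effects and 6 for homozygous basal minus middle. Leaving out each library gave 0 to 3 in the middle turn, 1 to 3 in the basal turn, 0 to 3 for the difference between basal and apical effects, 4 to 7 for that between basal and middle effects, 0 to 1 for wild-type basal minus middle, 0 to 4 for homozygous basal minus apical and 0 to 7 for homozygous basal minus middle. A group left with 1 library is assumed to vary like the others. Calls over all genes also varied widely between these fits, so such changes are not particular to the members. Other causes were not tested.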
